A study of Mus musculus with 4 samples.

Results

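Cycling secretory luminal cells are the dividing fraction of the milk-lineage epithelium of the mouse mammary gland. They were picked out of the single-cell data by transcripts alone. The cells were chosen by their own measured levels of 22 genes. A barcode entered with at least 1000 unique molecular identifiers (UMIs, each a single captured transcript) over at least 500 genes, of which mitochondrial transcripts made up 15% or less. It was called secretory with 10 or more UMIs per 10000 of Wfdc18, Csn3, Elf5 and Kit together, under 10 of the hormone-sensing genes Esr1, Prlr, Areg and Foxa1, and under 10 of the basal genes Acta2, Myh11, Mylk and Tagln. A secretory cell was called cycling when it held a UMI of 3 or more of Mki67, Top2a, Cdk1, Ccnb1, Birc5, Ube2c, Cenpf, Tpx2, Aurkb and Ccnb2. The rule found 760 cycling cells among 4088 secretory cells, out of 25950 kept cells of 30062 barcodes. They are set against the 2453 secretory cells that held none of the 10 genes, called non-cycling below, and the 875 secretory cells with 1 or 2 of the 10 stand between.

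The 4 libraries came from mice 6 months old that all carried pellets of estradiol (E2) and progesterone (P4), and each holds cells sorted for the epithelial surface protein EpCAM. They are Esr1-wildtype (WT) mice given giredestrant at 30 mg/kg by mouth each day for 4 days, WT mice given vehicle (MCT), mice with the Esr1 mutation Y541S given the same giredestrant, and Y541S mice given vehicle. Giredestrant is an antagonist and degrader of the estrogen receptor. Each group is 1 library, the number of animals behind it is not stated, and no other source than the labels gives its genotype.

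Luminal epithelium of the mammary gland divides into hormone-sensing cells, which carry the estrogen receptor, and secretory cells, which carry Elf5 and Kit and include the progenitors of the milk-producing alveoli. Secretory cells carry little estrogen receptor themselves, and in the hormone-treated gland much of their division is driven by paracrine signals from hormone-sensing neighbours. Dividing cells replicate their DNA in S phase, where E2F factors switch on replication genes, and then in G2 and mitosis switch on a further set of genes whose promoters often hold CCAAT boxes and the cell-cycle homology region (CHR), through which repressor and activator complexes of the DREAM and Myb-MuvB family act.

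The promoters of 4 genes are shown because they carry these elements in genes the results turn on: both defining proliferation markers, the gene furthest above non-cycling cells and a subunit of the replicative helicase. Each run is the 250 bases before the annotated gene start, 5′ to 3′ on the gene's strand, from RefSeq on GRCm38.p6. Capitals mark the CHR (TTTGAA), the CCAAT box (CCAAT) and the E2F site (TTCCCGC), on the strand shown or, as the reverse complement, on the other strand.
Mki67 promoter: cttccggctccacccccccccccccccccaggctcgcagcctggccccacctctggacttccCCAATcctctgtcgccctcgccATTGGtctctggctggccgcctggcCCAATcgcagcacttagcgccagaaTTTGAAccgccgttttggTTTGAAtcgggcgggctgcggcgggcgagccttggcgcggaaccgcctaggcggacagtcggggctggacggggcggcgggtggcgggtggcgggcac
Top2a promoter: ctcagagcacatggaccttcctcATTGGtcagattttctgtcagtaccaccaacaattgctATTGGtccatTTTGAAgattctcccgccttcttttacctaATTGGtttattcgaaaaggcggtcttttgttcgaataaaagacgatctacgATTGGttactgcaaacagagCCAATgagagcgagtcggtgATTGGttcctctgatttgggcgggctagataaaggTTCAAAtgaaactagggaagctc
Hmmr promoter: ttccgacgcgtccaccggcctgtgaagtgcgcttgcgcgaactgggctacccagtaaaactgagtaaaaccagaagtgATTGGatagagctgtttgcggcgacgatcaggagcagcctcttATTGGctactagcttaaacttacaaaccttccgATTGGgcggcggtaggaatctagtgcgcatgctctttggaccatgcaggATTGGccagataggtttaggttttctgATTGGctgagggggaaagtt
Mcm7 promoter: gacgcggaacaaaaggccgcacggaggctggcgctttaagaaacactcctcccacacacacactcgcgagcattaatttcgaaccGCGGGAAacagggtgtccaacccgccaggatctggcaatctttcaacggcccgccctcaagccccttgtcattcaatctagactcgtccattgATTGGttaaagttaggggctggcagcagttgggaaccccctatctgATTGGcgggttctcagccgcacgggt
Mki67 (chr7:135716380-135716629, minus strand), the proliferation antigen Ki-67, held 2 CHR matches and 3 CCAAT boxes. Top2a (chr11:99024190-99024439, minus strand), which untangles replicated DNA, held 2 CHR matches and 6 CCAAT boxes. Hmmr (chr11:40733438-40733687, minus strand), a spindle protein, held 5 CCAAT boxes, and Mcm7 (chr5:138171884-138172133, minus strand) held 2 CCAAT boxes and 1 E2F match. A CHR match stood in 5 of the 8 cycling genes of the rule that had a window (62.5%) and in 13 of 40 genes of the G2 and mitosis list (32.5%), against 16.3% of the 27025 promoters of all genes. A CCAAT box stood in 7 of the 8 (87.5%), in 28 of the 40 (70.0%) and in 17 of 29 S phase genes (58.6%), against 34.5% of all promoters. The E2F match stood in 10 of the 29 S phase genes (34.5%), against 3.84% of all promoters. These are counts of letters in a window and not sites shown to be bound.

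Wfdc18, Top2a, Mki67 and Acta2 are genes of the rule, so their levels below follow from the choice of cells and are only described. Outside the rule, the secretory marker Aldh1a3 had a UMI in 32.2% to 88.2% of cycling cells and 0.492% to 2.13% of basal cells. For the secretory marker Cd14 these shares were 78.0% to 90.6% and 2.26% to 3.75%, with cells at their own depth. Wfdc18, a secreted whey-acidic-domain protein of the secretory lineage, stood at 5599.7, 8051, 4765 and 10149 CPM (UMIs of the gene per 1000000 UMIs of the sum) in the cycling cells of WT giredestrant, WT vehicle, Y541S giredestrant and Y541S vehicle, and at 7.82 to 26.4 CPM in basal cells. Top2a stood at 448, 420.2, 405 and 450.4 CPM and Mki67 at 406, 235, 532 and 273 CPM in the same 4 sets of cycling cells, and at 0 in non-cycling cells by construction. The basal gene Acta2 stood at 6.93 to 29.1 CPM in cycling cells and 5709 to 7717 CPM in basal cells and, in hormone-sensing cells that should lack it, 6.27 to 29.5 CPM. The labels name the source as mature luminal cells, whereas by the same marker rule basal cells were the most frequent class in every library (1067, 5063, 3861 and 3049 cells in the same order).

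Cycling cells were the deeper cells of each library. The 85, 109, 205 and 361 cycling cells of WT giredestrant, WT vehicle, Y541S giredestrant and Y541S vehicle had median UMIs of 35478, 21118, 11805 and 21897, against 17888.5, 10993, 5842 and 13133 in the non-cycling cells of the same libraries. Median genes per cell were 6609, 5042, 3959 and 5327 in cycling cells and 4598.5, 3431, 2437 and 3868 in non-cycling cells. Median mitochondrial shares lay between 1.54% and 2.36% in cycling cells and between 1.62% and 3.02% in non-cycling cells. The summed UMIs behind the comparisons were 3319267, 2486952, 2924230 and 8628750 in cycling cells and 6601427, 5660251, 5633989 and 11576558 in non-cycling cells. Of the cycling cells, 0, 3, 5 and 4 (0%, 2.75%, 2.44% and 1.11%) were among the highest doublet scores of their library. Of the non-cycling cells, 2, 4, 10 and 4 were (0.588%, 0.883%, 1.22% and 0.478%). Median doublet scores were 0.034, 0.042, 0.043 and 0.031 in cycling and 0.018, 0.019, 0.021 and 0.016 in non-cycling cells, higher in cycling cells of each library. Whether any are doublets was not tested. No cycling barcode was shared by any pair of libraries, though pairs shared 10 to 29 barcodes in all.

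The share of secretory cells that met the cycling rule was 14.5% (exact 95% binomial interval 11.7 to 17.6) in WT giredestrant, 16.3% (13.6 to 19.3) in WT vehicle, 15.7% (13.8 to 17.8) in Y541S giredestrant and 23.6% (21.5 to 25.9) in Y541S vehicle. The intervals cover counting error only and the shares are a description, with 1 library per group. A deeper cell more easily holds 3 of 10 genes, so each cell was also thinned to 3000 UMIs with its class kept. The thinned shares were 7.57% (5.56 to 10.0), 9.70% (7.50 to 12.3), 11.4% (9.57 to 13.4) and 13.4% (11.7 to 15.2) in the same order. Y541S vehicle was highest on both scales, and its interval lay apart from the other 3 at full depth and overlapped that of Y541S giredestrant and of WT vehicle after thinning. Thinned basal cells met the same 3-gene criterion in 2.20%, 2.09%, 3.51% and 3.20% of cells, and thinned hormone-sensing cells in 3.31%, 2.09%, 2.75% and 4.34%. The secretory class was the highest of the 3 in each library after thinning, with an interval apart from those of the other 2 classes. For the fold changes, gene counts and library ratios given below after thinning, class and state were instead called anew on the thinned counts. They rest on 44, 62, 124 and 198 cycling cells of WT giredestrant, WT vehicle, Y541S giredestrant and Y541S vehicle. Depth and membership therefore both differ from the main result there.

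**Figure D1:**
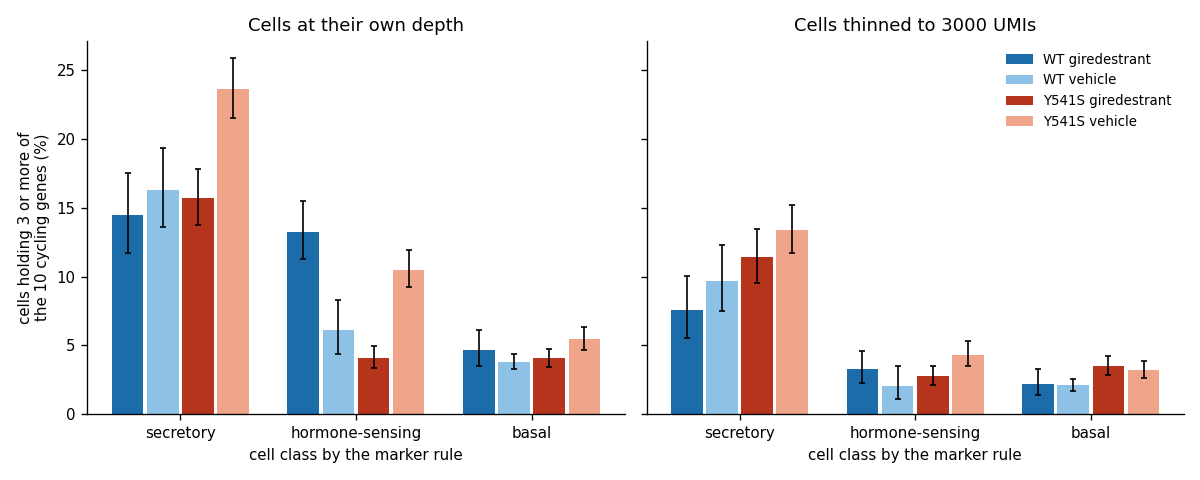
Percent of cells of each class that held 3 or more of the 10 cycling genes, at full depth (left) and with each cell thinned to 3000 UMIs (right); bars are single libraries and error bars are exact 95% binomial intervals for counting error. The secretory bars run from 7.57% to 13.4% after thinning, and no hormone-sensing or basal bar passes 4.34% there.

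Members ranged widely in how many of the 10 genes they held. Exactly 3 were held by 16, 20, 41 and 51 cells of WT giredestrant, WT vehicle, Y541S giredestrant and Y541S vehicle, and all 10 by 25, 19, 19 and 97. Just outside the rule, 46, 28, 93 and 106 cells held 2 genes. The S phase list (35 genes of DNA replication, none in the rule) stood at 21.3, 22.6, 12.7 and 18.9 UMIs per 10000 in the cells with 3 genes and at 13.6, 14.2, 11.2 and 15.5 in the cells with 2, against 4.82, 5.38, 4.73 and 5.41 in the cells with none. It was 42.1, 30.8, 18.9 and 42.0 in cells with 7 or 8 genes and 30.0, 31.7, 22.1 and 29.5 in cells with 9 or 10, so that in WT giredestrant and Y541S vehicle the highest level came before the last step. The list of G2 and mitosis genes outside the rule stood at 7.71, 9.19, 9.79 and 7.99 UMIs per 10000 in cells with 3 genes, at 37.8, 38.0, 40.8 and 34.4 with 7 or 8, and at 66.1, 61.0, 51.3 and 60.3 with 9 or 10. Cells that held more of the 10 genes were therefore richer in mitotic transcripts at every step, and cells with 2 genes already carried more S phase transcripts than cells with none. Median depth was 33064, 20821.5, 10104 and 19883 UMIs at 3 genes, 29129, 18547, 9101 and 18156 at 4 to 6, and 44770, 26803, 19914 and 27112.5 at 9 or 10. It was lower at 4 to 6 genes than at 3 and highest at 9 or 10 in each library, and its part in these levels was not tested.

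**Figure D2:**
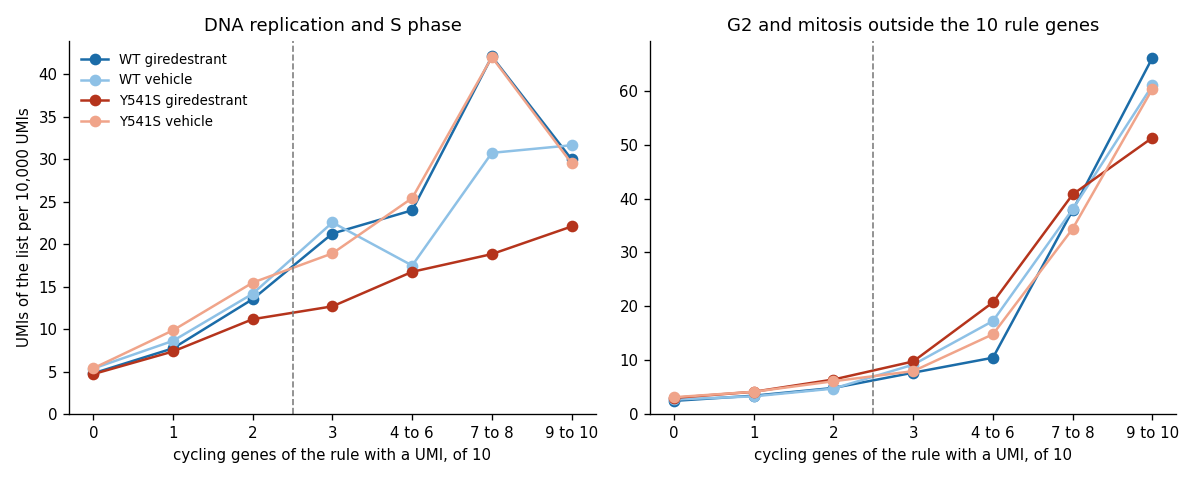
Summed level of the S phase list (left) and of the G2 and mitosis list (right), in UMIs per 10000, against the number of the 10 rule genes that a secretory cell held; each line is a library and the dashed line is the threshold of the rule. S phase transcripts are at 11.2 to 15.5 in cells with 2 genes, and G2 and mitosis transcripts reach 51.3 to 66.1 in cells with 9 or 10.

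The first comparison asked what else differs between cycling and non-cycling secretory cells of the same library. Counts were summed per library and state, and the 8 sums were tested with edgeR's quasi-likelihood test with the library as a block. The 22 genes of the rule were left without a test. Of 13503 other genes, 2462 rose (18.2%) and 2307 fell (17.1%) at an adjusted p under 0.05, which is 35.3% in all, and 4388 of these 4769 had the same sign in all 4 libraries. At least 2-fold, 694 rose (5.14%) and 249 fell (1.84%). With library totals in place of TMM scaling, 61.7% of the called genes were higher in cycling cells, against 51.6% with TMM. Without the library block 1065 genes passed, 829 higher and 236 lower, and without Y541S vehicle 1497 genes were lower. A list is read against these shares below, and genes that go up and down with the cell cycle are not independent of a rule built on such genes, so their counts are a description. Where states are said not to overlap, all 4 cycling values lay above, or all below, all 4 non-cycling values. The share of all genes without overlap was not counted, so a lack of overlap only describes the gene named. The 4 pairs are single libraries of different genotype and treatment, so the p-values measure the spread of the cycling minus non-cycling difference over these 4 libraries.

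All 35 S phase genes, all 47 tested G2 and mitosis genes and all 17 chromatin and histone genes were higher in cycling cells, with median log2 fold changes of 2.61, 4.75 and 2.33, against -0.029 over all genes tested. Pclaf, a clamp-associated factor of DNA replication, stood at 279.6, 349.8, 183 and 376 CPM in the cycling cells of WT giredestrant, WT vehicle, Y541S giredestrant and Y541S vehicle, against 1.21, 1.94, 3.37 and 2.59 CPM in non-cycling cells (log2 fold change 7.0 ± 0.17 (SE), adjusted p = 1.88e-12). The chromatin protein Hmgb2 stood at 1330.1, 1544, 1008 and 1536 CPM, against 129.7, 121, 86.3 and 125 CPM in non-cycling cells (log2 fold change 3.49 ± 0.066 (SE), adjusted p = 1.89e-13). The states did not overlap for either gene. Among replication genes the ribonucleotide reductase subunit Rrm2 had the largest fold (6.90 ± 0.24 for Rrm2), with 44.8 to 81.9 CPM in cycling and 0.151 to 1.06 CPM in non-cycling cells. The smallest folds were those of the histone mRNA binder Slbp, the maintenance methylase Dnmt1, the helicase factor Gins2 and the clamp Pcna (1.04 to 1.46). The replication-licensing factors Mcm2 to Mcm7 rose by log2 1.95 to 2.85.

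The 12 genes furthest above non-cycling cells, by the naming rule, were Hmmr, Ska1, Ccna2, Nuf2, Bub1, Neil3, Plk1, Depdc1a, Esco2, Ncapg, Kif15 and Pclaf. Hmmr stood at 97.6, 80.4, 62.9 and 83.8 CPM in cycling cells, against 0.151, 0, 0.177 and 0 CPM in non-cycling cells (log2 fold change 9.80 ± 0.25 (SE), adjusted p = 2.58e-12), and since it had no UMI in the non-cycling cells of 2 libraries the size of the fitted fold depends on the prior count. Ccna2, the cyclin of S phase and G2, stood at 102, 77.2, 58.8 and 91.9 CPM, against 0.151, 0, 0.532 and 0.173 CPM (log2 fold change 8.51 ± 0.24 (SE), adjusted p = 4.45e-12). Nuf2 and Ska1 join chromosomes to the spindle, Bub1 and Plk1 are mitotic kinases, Esco2 ties sister chromatids together, Ncapg condenses chromosomes and Kif15 is a spindle motor. Neil3, a DNA glycosylase, stood at 42.7 to 56 CPM in cycling and 0 to 0.355 CPM in non-cycling cells (log2 fold change 8.21 ± 0.28 (SE), adjusted p = 2.31e-11). Non-cycling cells were chosen to lack 10 genes of the same phase, so the size of these folds follows in part from the choice.

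Genes of DNA repair and checkpoint were higher in cycling cells. Of 19 tested genes of the p53 and DNA damage list, 8 rose and 3 fell. Among those that rose were the p53 target Bax and the repair and checkpoint genes Brca1, Brca2, Fancd2, Chek1, Chek2 and Atad2, with log2 fold changes of 4.26 ± 0.15 for Brca1, 2.37 ± 0.14 for Brca2 and 0.34 ± 0.077 for Bax. Brca1, which serves homologous recombination, stood at 47.9, 48.3, 49.6 and 51.1 CPM in cycling cells, against 2.73, 1.94, 1.60 and 3.11 CPM in non-cycling cells. Gadd45a, Trp53inp1 and Tpbg fell, with -0.59 ± 0.12 for Gadd45a and -0.77 ± 0.20 for Trp53inp1. Mdm2, the p53 ligase and p53 target, had a log2 fold change of -0.15 (adjusted p = 0.213), and Cdkn1a, the p53-induced CDK inhibitor p21, one of 0.16 (adjusted p = 0.270).

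Among the genes that govern entry into the cycle, 9 of 19 tested rose and 6 fell. Ccnd1, the D cyclin of mammary epithelium, stood at 593, 582, 609 and 485 CPM in the cycling cells of WT giredestrant, WT vehicle, Y541S giredestrant and Y541S vehicle, against 329, 441, 557 and 370.0 CPM in non-cycling cells (log2 fold change 0.38 ± 0.092 (SE), adjusted p = 0.00513). It was higher in cycling cells of all 4 libraries, but the states overlapped, and in cells thinned to 3000 UMIs its log2 fold change was 0.16 (adjusted p = 0.28). Ccnd2, another D cyclin, rose (log2 fold change 1.41 ± 0.43 (SE), adjusted p = 0.0190), at 0.301, 6.43, 12.7 and 0.348 CPM in cycling and 0.606, 2.12, 4.08 and 0 CPM in non-cycling cells, and Ccnd3 fell (log2 fold change -0.53 ± 0.099 (SE), adjusted p = 8.77e-04). The kinases Cdk2 and Cdk4 rose (1.06 ± 0.12 for Cdk2 and 0.69 ± 0.075 for Cdk4) and Cdk6 fell (-0.30 ± 0.083). The call of Ccnd2 was lost with thinned cells, with the highest doublet scores left out, without either of WT vehicle and Y541S giredestrant, and in DESeq2. Its 16 UMIs in WT vehicle lay in 2 of the 109 cycling cells. In Y541S giredestrant 3 of 205 cells held 64.9% of its 37 UMIs. WT giredestrant and Y541S vehicle had 1 and 3 UMIs in cycling cells.

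Inhibitors of the same kinases rose too. Cdkn2c (p18) stood at 38.9, 26.1, 16.1 and 23.2 CPM in cycling cells, against 15, 4.77, 4.26 and 8.38 CPM in non-cycling cells (log2 fold change 1.63 ± 0.16 (SE), adjusted p = 3.00e-06). Cdkn2d (p19) stood at 31.6, 18.9, 16.8 and 19.4 CPM, against 5.60, 3.53, 5.15 and 5.61 CPM (log2 fold change 2.01 ± 0.17 (SE), adjusted p = 6.07e-07), and Cdkn1b (p27) at 61.2, 59.1, 73.5 and 56.1 CPM, against 48.5, 43.3, 52.9 and 37.6 CPM (log2 fold change 0.41 ± 0.083 (SE), adjusted p = 0.00149). The states did not overlap for any of these 3 inhibitors. Rbl1 (p107) rose (log2 fold change 2.53 ± 0.13 (SE), adjusted p = 2.53e-09), while its relative Rb1 fell (log2 fold change -0.24 ± 0.086 (SE), adjusted p = 0.0453) and Rbl2 had a log2 fold change of -0.13 (adjusted p = 0.495). Myc, the growth-promoting transcription factor, was lower in cycling cells, at 42.2, 38.2, 53 and 53 CPM, against 61.2, 54.2, 74.7 and 84.7 CPM in non-cycling cells (log2 fold change -0.63 ± 0.080 (SE), adjusted p = 3.29e-05), with no overlap, whereas its low-expressed paralog Mycl rose, at 2.39 to 3.71 CPM in cycling and 0.530 to 1.67 CPM in non-cycling cells (1.44 ± 0.39 for Mycl). The antiproliferative genes Btg1 and Btg2 fell (-0.47 ± 0.064 for Btg1 and -0.49 ± 0.084 for Btg2). DESeq2 called neither Mycl nor Rb1.

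Growth genes were higher in cycling cells by small amounts. Of 22 genes of ribosome biogenesis and nucleotide synthesis, 20 rose and none fell, with a median log2 fold change of 0.45. In cells thinned to 3000 UMIs 10 of the 22 rose, and without the library block 6 did. Cad and Umps, enzymes of pyrimidine synthesis, had the largest folds (1.30 ± 0.16 for Cad and 1.04 ± 0.16 for Umps). Umps stood at 19.2 to 39.8 CPM in cycling cells and at 11.8 to 16.2 CPM in non-cycling cells. The snoRNP proteins Dkc1 and Nop56 rose by log2 0.86 and 0.69, and nucleolin (Ncl) stood at 1199, 1257, 1478 and 1356 CPM in cycling cells, against 804, 857, 1207 and 932 CPM (log2 fold change 0.43 ± 0.061 (SE), adjusted p = 8.04e-05). Polr1b and Wdr43 did not pass the test, and after thinning neither Umps nor Npm1 did.

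Chaperones of the endoplasmic reticulum rose with the cycle, and the transcription factors of the unfolded protein response did not. Of 12 genes of that list 7 rose and 2 fell, with a median of 0.34, and after thinning 7 rose and none fell. Hsp90b1, the endoplasmic Hsp90, stood at 477, 586, 490.4 and 614 CPM in the cycling cells of WT giredestrant, WT vehicle, Y541S giredestrant and Y541S vehicle, against 197, 275, 282 and 226 CPM in non-cycling cells (log2 fold change 1.10 ± 0.091 (SE), adjusted p = 3.96e-07), with no overlap. Sdf2l1, Creld2, Pdia6, Pdia4, Calr and Hspa5 also rose, with 1.33 ± 0.16 for Sdf2l1, 0.94 ± 0.12 for Creld2 and 0.25 ± 0.072 for Hspa5. Xbp1, the factor spliced on endoplasmic stress, fell (log2 fold change -0.37 ± 0.074 (SE), adjusted p = 0.00126), and so did Dnajb9. Ddit3 and Atf4, which mark the stress branch, had log2 fold changes of 0.027 (adjusted p = 0.898) and -0.019 (adjusted p = 0.848). Xbp1 did not pass after thinning, nor Dnajb9 after thinning or in DESeq2, and the rise of Hspa5 was lost without WT giredestrant or Y541S vehicle.

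Metabolic lists held genes that rose and genes that fell. Of 14 genes of glycolysis and hypoxia 4 rose (Pgk1, Tpi1, Eno1 and Gapdh) and 6 fell. Aldoa stood at 60.0, 55.5, 73.2 and 64.8 CPM in cycling cells, against 141, 141, 118 and 175 CPM in non-cycling cells (log2 fold change -1.25 ± 0.099 (SE), adjusted p = 2.38e-07), the reverse of its neighbour in the pathway, Tpi1, at 225, 162, 157 and 196 CPM, against 106, 98.1, 109 and 125 CPM (log2 fold change 0.69 ± 0.087 (SE), adjusted p = 2.82e-05). The states did not overlap for either enzyme. Of 19 genes of cholesterol and fatty acid synthesis 5 rose, among them the isoprenoid enzyme Idi1 (0.80 ± 0.15 for Idi1) and the desaturase Scd2 (0.82 ± 0.16 for Scd2), and 2 fell, among them the desaturase Scd1 (-0.56 ± 0.10 for Scd1). The share of the second list, 7 of 19, lay near the 35.3% of all genes that passed, and that of the first, 10 of 14, above it. After thinning, 1 of 18 cholesterol and fatty acid genes rose and 1 fell. Of 12 glycolysis and hypoxia genes 2 rose and 4 fell there.

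**Figure D3:**
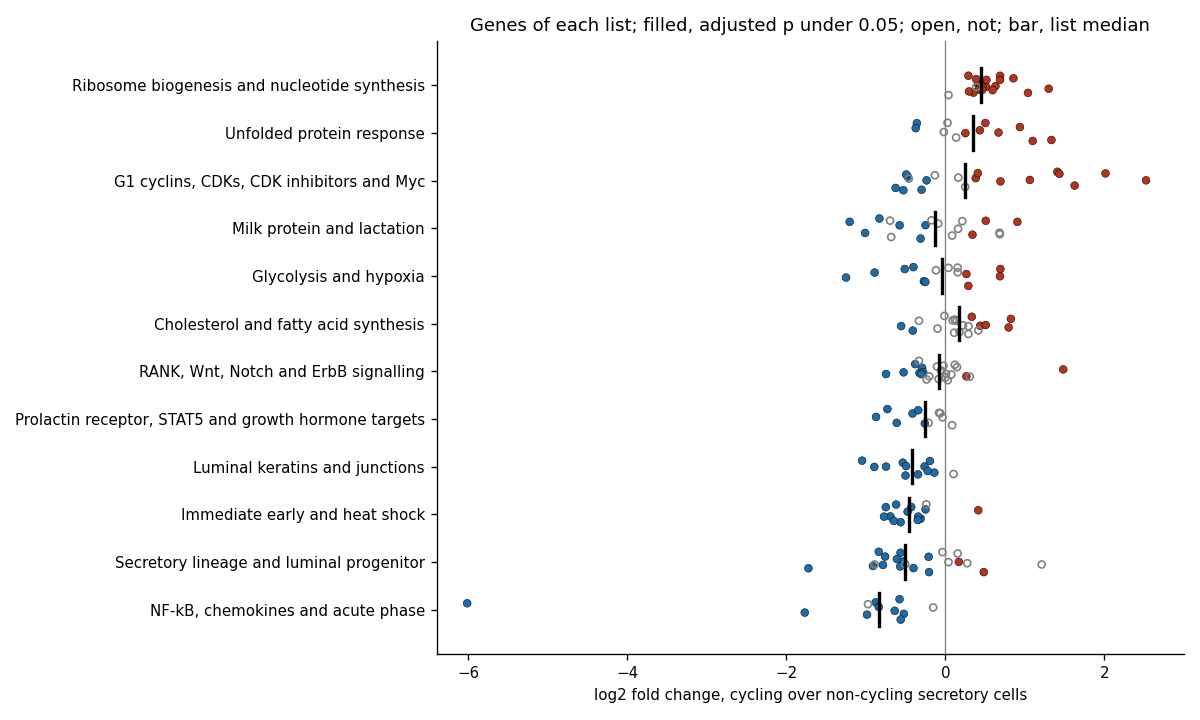
Log2 fold change of each tested gene of 12 lists, cycling over non-cycling secretory cells; filled points passed an adjusted p under 0.05 (red higher, blue lower in cycling cells), open points did not, and black bars are list medians. The ribosome list sits to the right of 0 with a median of 0.45 and the keratin, immediate early, secretory and NF-kB lists to the left, with medians of -0.42, -0.45, -0.50 and -0.84.

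More markers of the secretory lineage and its progenitors fell than rose in cycling cells. Of 21 tested genes of the secretory lineage and luminal progenitor list, 12 fell and 2 rose (Muc15 and Folr1), with a median of -0.50; after thinning 10 of 18 fell and 1 rose. Lcn2, an iron-sequestering protein of secretory cells, stood at 1217, 861, 645 and 1287 CPM in the cycling cells of WT giredestrant, WT vehicle, Y541S giredestrant and Y541S vehicle, against 1991, 1655, 1031 and 2222 CPM in non-cycling cells (log2 fold change -0.84 ± 0.053 (SE), adjusted p = 2.36e-08). Mfge8, the milk fat globule protein, stood at 836, 849.6, 650.4 and 589 CPM, against 1403, 1449, 998 and 931 CPM (log2 fold change -0.76 ± 0.050 (SE), adjusted p = 3.55e-08). Each was lower in the cycling cells of every library, and Mfge8 did not overlap between states while Lcn2 did.

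The progenitor markers went the same way. Cd14, a surface receptor used to sort luminal progenitors, stood at 342, 192, 249.6 and 212 CPM in cycling cells, against 564, 346, 422 and 444 CPM in non-cycling cells (log2 fold change -0.91 ± 0.066 (SE), adjusted p = 9.51e-08). Aldh1a3, which gives progenitors their aldehyde dehydrogenase activity, Plet1, Sox9 and Itga2 also fell (-0.53 ± 0.079 for Aldh1a3, -0.61 ± 0.057 for Plet1, -0.57 ± 0.068 for Sox9 and -0.56 ± 0.079 for Itga2). Lactoferrin (Ltf) fell furthest (log2 fold change -1.72 ± 0.12 (SE), adjusted p = 8.87e-08), at 24.1, 136, 22.6 and 59.6 CPM in cycling cells, against 112, 489, 42.4 and 168 CPM in non-cycling cells. Kit, which the rule used and which is therefore only described, stood at 168, 221, 171 and 179.7 CPM in cycling cells and 255, 389.9, 270.1 and 251 CPM in non-cycling cells, without overlap, while Elf5 stood at 141 to 262 and 164 to 236 CPM. Sox10 and Rspo1 did not pass the test (adjusted p = 0.804 and 0.712).

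Luminal keratins and junction genes fell in step. Of 12 tested genes 11 fell and none rose, with a median of -0.42, and after thinning 9 fell. Krt18 stood at 1853, 2058, 1751 and 1847 CPM in cycling cells, against 3254, 2915, 2989 and 2923 CPM in non-cycling cells (log2 fold change -0.75 ± 0.055 (SE), adjusted p = 1.16e-07), and its partner Krt8 at 2131, 2769, 2239 and 2289.8 CPM, against 3061, 3547, 3182 and 3279.9 CPM (log2 fold change -0.53 ± 0.047 (SE), adjusted p = 6.84e-07). The tight junction claudin Cldn4 stood at 251, 362, 325 and 313 CPM, against 544, 709, 616 and 606 CPM (log2 fold change -1.05 ± 0.056 (SE), adjusted p = 3.39e-09). None of these 3 overlapped between states. The smallest of the 11 changes were those of Epcam (-0.14 ± 0.047 for Epcam), the protein the cells were sorted on, and of Tjp1, whose log2 fold change turned to 0.03 after thinning. Cd24a did not pass the test (0.10, adjusted p = 0.186), and the call of Epcam was lost under 8 of the 13 alternatives.

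Milk genes split by kind. Of 18 tested, 3 rose, all caseins, and 6 fell, with a median of -0.13. Csn1s1, the alpha-S1 casein, stood at 8.13, 82.8, 4423 and 150.3 CPM in the cycling cells of WT giredestrant, WT vehicle, Y541S giredestrant and Y541S vehicle, against 3.18, 42.2, 3312 and 48.6 CPM in non-cycling cells (log2 fold change 0.91 ± 0.16 (SE), adjusted p = 6.20e-04). The libraries differed from each other far more than the states did, and in each library cycling cells were higher. Csn2 and Csn1s2a rose by less (0.51 ± 0.14 for Csn2 and 0.34 ± 0.12 for Csn1s2a), and Csn1s2a had a log2 fold change of 0.092 after thinning (adjusted p = 0.76) and of 0.00057 with 2 or more rule genes (adjusted p = 0.998). Its call was also lost without WT vehicle, Y541S giredestrant or Y541S vehicle. Csn3, a gene of the rule, stood at 1539, 948, 1109 and 2215 CPM in cycling cells and 736, 899.8, 916 and 1224 CPM in non-cycling cells, as a description. The 6 that fell serve the milk fat globule and lipid handling: the globule membrane protein Btn1a1 (-1.01 ± 0.14 for Btn1a1), the mucin Muc1 (-0.83 ± 0.100 for Muc1), Xdh, Plin2, Lipa and Cidea. DESeq2 called neither Csn2 nor Csn1s2a.

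After thinning, the share of cells with a Csn1s1 UMI was 3.53%, 16.5%, 91.9% and 18.1% among cycling cells of WT giredestrant, WT vehicle, Y541S giredestrant and Y541S vehicle, against 1.20%, 3.37%, 83.3% and 6.93% among non-cycling cells. In basal cells, which should lack casein, it was 0%, 0.020%, 6.72% and 0.100%, the highest in Y541S giredestrant and under the share in cycling cells in each library; the source of these UMIs was not tested. Csn2 was found in 0 of 85 cycling cells of WT giredestrant, which allows up to 4.25% of cells with a UMI (exact 95% interval) and sets no limit on expression below detection.

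**Figure D4:**
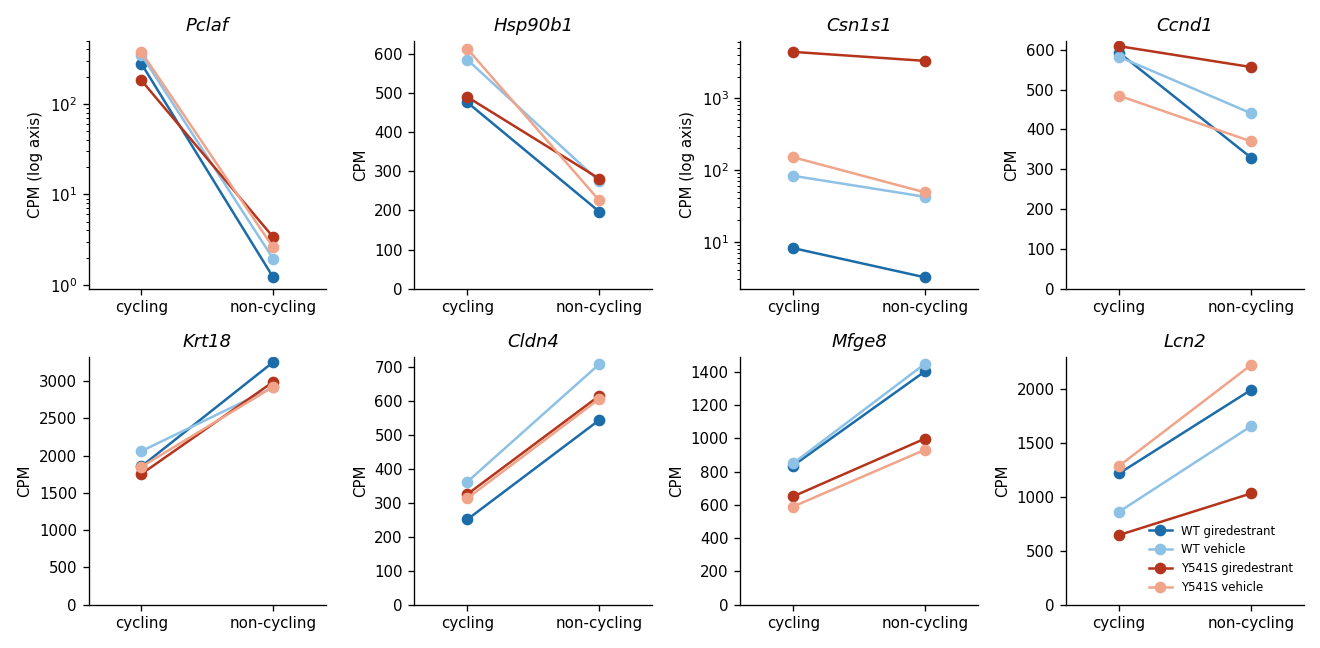
CPM of 8 genes in cycling (left) and non-cycling (right) secretory cells, 1 line per library; Pclaf and Csn1s1 are on log axes. Pclaf, Hsp90b1, Csn1s1 and Ccnd1 are higher in the cycling cells of all 4 libraries, and Krt18, Cldn4, Mfge8 and Lcn2 are lower in all 4.

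Transcripts of acute signalling were lower in cycling cells. Of 14 immediate early and heat shock genes 12 fell and 1 rose (Hsph1), with a median of -0.45, and after thinning 10 fell and none rose. The AP-1 genes Fos, Fosb, Jun, Junb and Jund and the stress factor Atf3 fell, with -0.69 ± 0.078 for Fosb, -0.62 ± 0.066 for Fos and -0.31 ± 0.062 for Jun. Fos stood at 1466, 1131, 493 and 626 CPM in cycling cells, against 1839.8, 1909, 688 and 1003 CPM in non-cycling cells. The phosphatase gene Dusp1 stood at 138, 146, 145 and 107 CPM, against 209.8, 284, 189 and 186 CPM, without overlap (log2 fold change -0.75 ± 0.080 (SE), adjusted p = 5.98e-06). These genes are also induced by tissue dissociation, whose part was not tested.

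Of 11 tested NF-kB, chemokine and acute phase genes 9 fell and none rose, with a median of -0.84; after thinning 7 of 8 fell. Lcn2 is in this list too. Nfkbia, which holds NF-kB in the cytoplasm and is its target, stood at 613, 420.2, 369.7 and 490.0 CPM in cycling cells, against 826, 537, 495 and 763 CPM in non-cycling cells (log2 fold change -0.52 ± 0.059 (SE), adjusted p = 9.49e-06). The neutrophil chemokine Cxcl1 stood at 23.2, 35.4, 13 and 79.4 CPM, against 44.7, 73.3, 28.6 and 139 CPM (log2 fold change -0.99 ± 0.092 (SE), adjusted p = 1.47e-06), and was lower in the cycling cells of each library although the libraries overlapped. Saa1, an acute phase protein, stood at 0, 0, 0.342 and 0.116 CPM in cycling cells, against 0, 47.2, 11.7 and 0 CPM in non-cycling cells, so its call rests on WT vehicle and Y541S giredestrant.

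Of 12 tested interferon-response genes 7 fell and none rose, with a median of -0.57, but the list did not keep this. After thinning, none of the 7 genes that could be tested passed, and the log2 fold change of Oasl2 was 0.11. With either WT giredestrant or Y541S vehicle left out, 3 genes of the list fell. Rsad2 stood at 0.904, 0.804, 2.74 and 0.464 CPM in cycling cells, against 13.9, 1.06, 9.05 and 0.950 CPM in non-cycling cells (log2 fold change -2.23 ± 0.43 (SE), adjusted p = 0.00108), with the gap in the 2 giredestrant libraries.

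Genes of the prolactin receptor, STAT5 and growth hormone list were lower or did not pass the test. Of 11 genes 6 fell and none rose. Igfbp5, an IGF-binding protein, stood at 569.7, 399.7, 446 and 455 CPM in the cycling cells of WT giredestrant, WT vehicle, Y541S giredestrant and Y541S vehicle, against 902, 878, 763 and 739 CPM in non-cycling cells (log2 fold change -0.87 ± 0.073 (SE), adjusted p = 4.63e-07), without overlap. The cytokine-induced inhibitors Cish and Socs3 fell (-0.61 ± 0.12 for Cish and -0.73 ± 0.12 for Socs3), as did the IGF receptor Igf1r (-0.41 ± 0.10 for Igf1r), whereas Stat5a had a log2 fold change of 0.086 (adjusted p = 0.426).

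Of 23 genes of RANK, Wnt, Notch and ErbB signalling 7 fell and 2 rose, a share near the 35.3% of all genes. The 2 that rose were Znrf3 of the Wnt genes and Hey2 of the Notch genes. The 7 that fell were the neuregulin receptors Erbb4 and Erbb3, Egfr, its ligand Hbegf, Notch2, Notch3 and the Notch target Hes1. Erbb4 stood at 607, 552, 728 and 547 CPM in cycling cells, against 955, 809.7, 885 and 713 CPM in non-cycling cells (log2 fold change -0.53 ± 0.061 (SE), adjusted p = 1.18e-05), and Hbegf at 196, 298, 186 and 179.9 CPM, against 337, 443, 243 and 352 CPM (log2 fold change -0.75 ± 0.078 (SE), adjusted p = 4.65e-06). Tnfrsf11a, the receptor RANK through which progestins drive secretory cells, stood at 21.1, 22.1, 18.1 and 17.2 CPM, against 27.7, 23.9, 11.7 and 11.3 CPM (log2 fold change 0.12, adjusted p = 0.624). It was lower in the cycling cells of both WT libraries and higher in those of both Y541S libraries. The Wnt targets Axin2 and Tcf7 were low, at 1.51 to 3.71 and 2.74 to 7.64 CPM in cycling cells.

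The 12 genes furthest below non-cycling cells, by the naming rule, were Ly6a, Lrg1, Ltf, Prelp, Chst9, Nupr1, Lama3, Hspb1, Mdga2, Gabrg3, Dpp6 and Clic6. Ly6a (Sca-1), a surface protein of hormone-sensing and stromal cells, stood at 5.42, 7.64, 7.52 and 4.29 CPM in cycling cells, against 28.8, 48.9, 10.3 and 9.93 CPM in non-cycling cells (log2 fold change -1.80 ± 0.26 (SE), adjusted p = 8.41e-05), and after thinning its log2 fold change was -0.47 (adjusted p = 0.56). Hspb1, the small heat shock protein Hsp27, stood at 235, 501, 126 and 442 CPM, against 733, 1037, 349.7 and 1105 CPM (log2 fold change -1.42 ± 0.080 (SE), adjusted p = 5.89e-09). Gabrg3, a subunit of the GABA receptor, stood at 94.6, 117, 124 and 113 CPM, against 215, 334, 247 and 320.5 CPM (log2 fold change -1.37 ± 0.083 (SE), adjusted p = 1.29e-08), with no overlap, and Dpp6 and Clic6 likewise did not overlap. Nupr1, a stress-induced chromatin protein, fell by log2 1.49.

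Markers of other cells seldom passed between the states. Of 15 tested hormone-sensing markers outside the rule 2 fell (Ly6a and Cited4), and of 14 tested basal markers 2 fell (Oxtr and Tpm2); after thinning Krt14 and Krt17 rose in cycling cells and neither of those 2 fell. The summed hormone-sensing list stood at 168, 197, 379.9 and 133 CPM in the cycling cells of WT giredestrant, WT vehicle, Y541S giredestrant and Y541S vehicle, against 199.8, 391, 409 and 161 CPM in non-cycling cells. The summed basal list stood at 322, 770.4, 549.9 and 418 CPM in cycling cells, against 338, 533, 559 and 484 CPM, so both lists were present in each state. The summed immune list stood at 13.3, 29.8, 67.4 and 8.11 CPM in cycling cells, against 61.7, 24.7, 24.8 and 14.3 CPM in non-cycling cells, and Ptprc, Cd3e, Cd3d, Nkg7, Ms4a1 and Itgax had no UMI in any cycling cell. The summed stromal and endothelial list stood at 8.74, 7.64, 24.3 and 7.88 CPM in cycling cells, against 66.8, 9.36, 19.5 and 13.0 CPM, with Lum and Cldn5 at 0 in cycling cells. The adipocyte and endothelial lipid carrier Fabp4 fell and the endothelial gene Plvap rose, both at 4.79 CPM or less in cycling cells, and neither passed in DESeq2.

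The remaining comparisons set single libraries of cycling cells against each other, so there is no test and no p-value. Ratios of CPM are given on a log2 scale relative to the median gene of the comparison, with exact 95% intervals for counting error, and a gene is counted as higher or lower at 2-fold or more with 20 or more UMIs in the pair. WT giredestrant against WT vehicle asks what the antagonist is followed by in glands with the normal receptor. Of 11167 genes 384 were higher (3.44%) and 429 lower (3.84%). None of the 35 S phase genes and none of the 47 G2 and mitosis genes reached 2-fold, with medians of 0.15 and 0.18.

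Several single genes stood apart in WT giredestrant. Of 18 genes of the secretory lineage and luminal progenitor list 3 were higher and 2 lower, with a median of -0.031. None of 14 immediate early and heat shock genes and none of 12 unfolded protein response genes reached 2-fold. Slc28a3, a nucleoside transporter, stood at 731 CPM in giredestrant and 201 CPM in vehicle (relative log2 1.81 (95% interval 1.67 to 1.95)), and in non-cycling cells at 397 and 178 CPM. Btg2 stood at 432 CPM in giredestrant and 127 CPM in vehicle (1.71 (95% interval 1.53 to 1.89)), Hey1, a Notch target, at 75.6 and 20.1 CPM (1.85 (95% interval 1.41 to 2.32)), and the magnesium transporter Cnnm2 at 82.2 and 14.5 CPM (2.45 (95% interval 1.94 to 2.99)). Ltf went the other way, with 24.1 CPM in giredestrant and 136 CPM in vehicle (-2.55 (95% interval -2.92 to -2.19)). Of 7 interferon genes with enough UMIs 3 were higher in giredestrant (Isg15, Irf7 and Rtp4), and in non-cycling cells, where 3.41% of all genes were higher and 4.2% lower, 9 of 12 were.

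The 6 genes furthest up by the naming rule were Fam46a, Tmc5, Cnnm2, Cck, Apod and Ftl1-ps1; the last is a ferritin pseudogene whose reads may come from its parent gene, and 3 cells held 67 of the 134 Cck UMIs and 72.3% of the Apod UMIs in giredestrant. The 6 furthest down were Krt5, Chst11, Kcnq5, Cxcl14, Krt17 and Gpx3. In WT vehicle 3 of the 109 cycling cells held 98.4% of the Krt5 UMIs, 77.4% of Chst11, 93.5% of Kcnq5, 91.6% of Cxcl14, 64.2% of Krt17, 86.5% of Krt14 and all of the 25 Trp63 UMIs. These 7 genes stood at 116 to 3613 CPM in the basal cells of the 4 libraries. With the highest doublet scores left out the relative log2 ratio of Krt5 was -5.47, against -5.45 with them. Gpx3 stood at 2.71 CPM in giredestrant and 52.7 CPM in vehicle, where 36 cells held it and 3 of them 60.3% of its UMIs.

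Y541S giredestrant against Y541S vehicle asks the same of glands with the mutant receptor. Of 12511 genes 840 were higher (6.71%) and 784 lower (6.27%), and with TMM scaling 669 were higher and 1108 lower. The S phase list was lower in giredestrant: 9 of 35 genes were at least 2-fold lower and none higher, with a median of -0.80. The 9 were Mcm3, Mcm5, Gins2, Cdc45, Tk1, Dut, Rpa2, Ung and Ccne1. Tk1, thymidine kinase, stood at 24.3 CPM in giredestrant and 55.7 CPM in vehicle (-1.19 (95% interval -1.57 to -0.83)), and Dut, the dUTPase, at 76.3 and 208 CPM (-1.44 (95% interval -1.65 to -1.24)). The helicase subunit Mcm5 stood at 38.3 and 88.1 CPM (-1.19 (95% interval -1.49 to -0.90)), and the clamp Pcna at 62.2 and 115 CPM (-0.87 (95% interval -1.11 to -0.64)).

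The G2 and mitosis list had 2 of 47 genes lower, Plk1 and Cks2, and a median of -0.25, so that the cycling cells of Y541S giredestrant carried fewer S phase transcripts beside a smaller difference in mitotic ones. Among the genes of the rule, as a description, Mki67 stood at 532 CPM in giredestrant and 273 CPM in vehicle and Cdk1 at 80.7 and 187 CPM. Depth differed between the libraries, with median UMIs of 11805 and 21897 in these cells. After thinning to 3000 UMIs, 494 of 6798 genes were at least 2-fold lower in giredestrant and 394 higher. Of the S phase list 13 of 30 genes were lower there, with a median of -0.65. In non-cycling cells, where 6.37% of all genes were higher and 6.6% lower, 2 of 32 were lower and 1 higher, with a median of -0.25. The ribosome list was lower by a median of -0.57 in cycling cells and -0.26 in non-cycling cells, with 1 gene, Npm1, past 2-fold in each.

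Milk genes were higher in the cycling cells of Y541S giredestrant, with 11 of 17 at least 2-fold higher and 1 lower (median 1.81), and in non-cycling cells 11 of 17 were higher and none lower (median 1.69). Markers of other lineages moved in the same pair: 6 of 11 hormone-sensing markers were higher and 2 lower in giredestrant (median 1.10, summed level 379.9 CPM in giredestrant and 133 CPM in vehicle), and 7 of 12 basal markers were higher and 2 lower (median 1.31, 549.9 and 418 CPM). At 50 or more UMIs 2 of 7 basal markers were higher and 2 lower (median -0.089), and the part of either lineage in the milk genes was not tested. Csn2, beta-casein, stood at 3869.7 CPM in giredestrant and 19.2 CPM in vehicle (7.66 (95% interval 7.44 to 7.89)), and 173 of the 205 cycling cells held it. Csn1s1 stood at 4423 and 150.3 CPM (4.89 (95% interval 4.81 to 4.97)), and Csn1s2a at 1194 and 5.10 CPM (7.88 (95% interval 7.46 to 8.35)). The lipid genes Thrsp and Btn1a1 stood at 17.8 and 1.04 CPM and at 56.4 and 9.04 CPM. Non-cycling cells of the same libraries carried Csn2 at 3065 CPM in giredestrant and 8.21 CPM in vehicle, so the difference stood in both states. Glycam1 was at least 88.5-fold higher against a floor of 3 counts over the vehicle sum, with 85.6% of its UMIs in 3 cells, and Spp1 lay wholly in 3 cells. Calca, the calcitonin peptide precursor, stood at 35.9 CPM in giredestrant and 0.811 CPM in vehicle (5.48 (95% interval 4.39 to 6.83)), with 49.5% of its giredestrant UMIs in 3 cells.

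Of 7 genes named here as lower in Y541S giredestrant, 6 had a UMI in 81 to 284 of the 361 cycling cells of Y541S vehicle. Ptn, the growth factor pleiotrophin, stood at 16.4 CPM in giredestrant and 208 CPM in vehicle (-3.65 (95% interval -4.09 to -3.24)), and had a UMI in 29 of 205 and 284 of 361 cycling cells. Tspan8, a tetraspanin of mammary progenitors, stood at 15 and 146 CPM (-3.26 (95% interval -3.73 to -2.83)). Rbp7, a retinoid-binding protein, stood at 4.79 and 85.4 CPM (-4.15 (95% interval -5.02 to -3.39)), the transcription factor Lmx1b at 1.71 and 37.8 CPM (-4.45 (95% interval -6.09 to -3.22)), and the oxytocin receptor Oxtr at 1.03 and 15.3 CPM (-3.89 (95% interval -6.18 to -2.31)). Zfhx4 was lower too (-4.35), as was the chemokine Cxcl2 (-4.60), of which 3 cells held 64.0% of the vehicle UMIs. In non-cycling cells Tspan8 stood at 17.7 and 177 CPM, so both states differed between the libraries in this gene. Cd74 and Lyz2 were higher in the cycling cells of giredestrant, with 76.8% of the Cd74 UMIs in 3 of 205 cells, beside the summed immune list at 67.4 CPM in giredestrant and 8.11 CPM in vehicle; their part in the other differences was not tested.

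Y541S vehicle against WT vehicle asks what the mutation alone goes with. Of 12370 genes 347 were higher (2.81%) and 405 lower (3.27%), and in non-cycling cells 2.31% were higher and 4.66% lower. At full depth this was the fewest of the 4 comparisons, but after thinning 378 were higher and 294 lower of 6161 genes, beside 159 and 196 of 3368 for giredestrant over vehicle in WT. No gene of the S phase list and none of the G2 and mitosis list reached 2-fold (medians 0.16 and 0.074), although the cycling share was 23.6% in Y541S vehicle and 16.3% in WT vehicle. Hp, the acute phase protein haptoglobin, stood at 293 CPM in Y541S and 24.9 CPM in WT (3.55 (95% interval 3.19 to 3.94)), with a UMI in 133 of 361 Y541S cells. Rims2, an exocytosis protein, stood at 51.2 and 10.5 CPM (2.29 (95% interval 1.72 to 2.92)). Of 9 NF-kB and chemokine genes 3 were higher in Y541S: Cxcl1 at 79.4 and 35.4 CPM (1.16 (95% interval 0.84 to 1.50)), Cxcl2 and Ccl20.

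The other genes furthest up were Tnnc1, Ppic, Gad1 and Wfdc12, of which the first 3 had 3 UMIs each in WT vehicle and Wfdc12 had 4, with 98.6% of its Y541S UMIs in 3 cells. The genes furthest down were Krt5, Cxcl14, Kcnq5, Gfra1, Lama3 and Krt16, of which the first 4 had 91.6% to 100% of their WT vehicle UMIs in 3 cells. Replication-dependent histone transcripts also differed, with Hist1h2ap at 46.9 CPM in Y541S and 167 CPM in WT (-1.84 (95% interval -2.04 to -1.64)). These transcripts mostly lack the poly(A) tail that the 3′ assay captures, and their copies are near-identical, so their levels are uncertain.

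Y541S giredestrant against WT giredestrant compares the genotypes under the antagonist. Of 11400 genes 831 were higher (7.29%) and 811 lower (7.11%), and with TMM scaling 677 were higher and 1032 lower. Each library enters 2 of the 4 comparisons, so this one shares the Y541S giredestrant cells with the comparison to Y541S vehicle, and the WT giredestrant cells with the comparison to WT vehicle. The S phase list had 8 of 35 genes at least 2-fold lower in Y541S and none higher, with a median of -0.73. After thinning 8 of 20 genes of the list were lower (median -0.86), beside 372 lower and 496 higher of all 4709 genes. Of the milk list 12 of 16 were higher and none lower, with a median of 2.13. Csn2 was at least 4282-fold higher against a floor of 3 counts over the WT sum, where it had no UMI.

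Cst3, the secreted protease inhibitor cystatin C, stood at 33.2 CPM in Y541S and 723 CPM in WT (-4.38 (95% interval -4.68 to -4.08)), and was found in 79 of the 85 WT cells and 61 of the 205 Y541S cells. Rbp7, Rftn2, Lmx1b and Zfhx4 were also among the 6 furthest down. Hey1 stood at 11.3 and 75.6 CPM (-2.67 (95% interval -3.24 to -2.15)) and the axon guidance protein Ntn4 at 1.03 and 23.8 CPM (-4.47 (95% interval -6.77 to -2.87)). Cftr, the chloride channel, went the other way, at 29.4 CPM in Y541S and 0.301 CPM in WT, where it had 1 UMI, and Krt6a had 86 UMIs in 25 Y541S cells and none in WT. Of 11 genes of the STAT5 list 3 were higher in Y541S (Stat5a, Cish and Gata3), with Stat5a at 85.2 and 40.1 CPM (1.16 (95% interval 0.85 to 1.47)), and in non-cycling cells, where 7.04% of all genes were higher and 8.08% lower, 2 of 11 were.

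**Figure D5:**
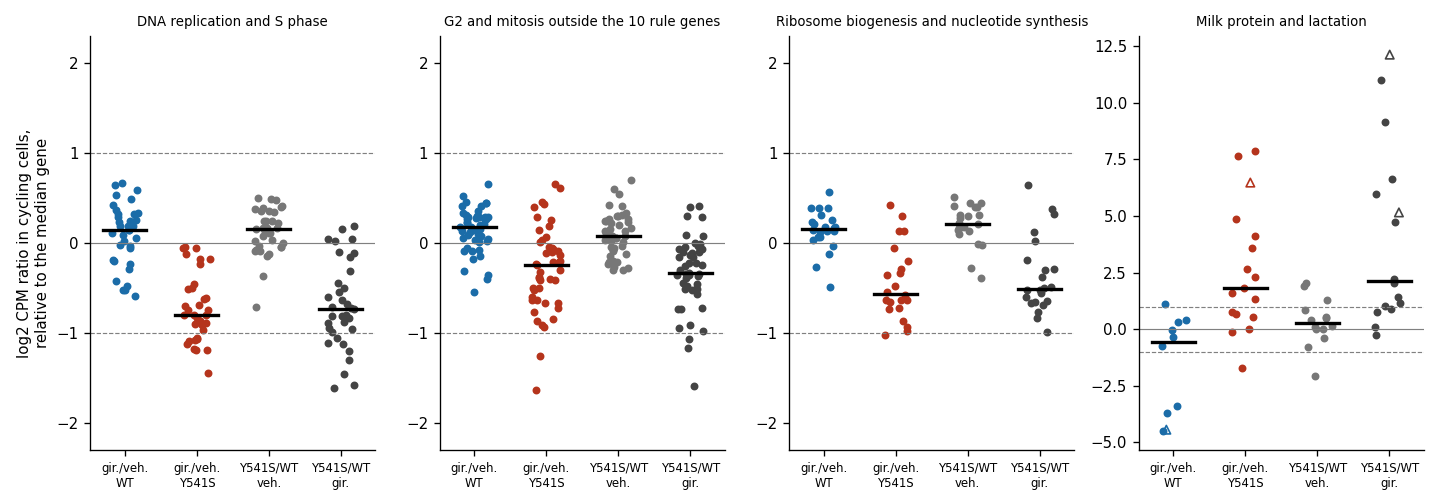
Log2 CPM ratios between libraries in cycling secretory cells, relative to the median gene, for the genes of 4 lists; points are genes with 20 or more UMIs in the pair, bars are medians, dashed lines mark 2-fold, open triangles are genes at 0 in a library drawn at a floor of 3 counts, and the milk panel has its own scale. The S phase medians are 0.15, -0.80, 0.16 and -0.73, and the milk median reaches 1.81 and 2.13 in the pairs with Y541S giredestrant on top.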

How the data were processed

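The 4 libraries were made with the 10x Genomics 3′ kit version 3.1 from EpCAM-sorted cells, 1 library per group. The deposited matrices hold UMI counts per gene and barcode, written by Cell Ranger 6.0.1 per the file headers and on GRCm38 per the submitters' processing notes. The authors' barcode filter before deposit is not given in the sources used here, and no cell annotation was used. Library totals were 84215237 UMIs in WT giredestrant, 98223195 in WT vehicle, 70781982 in Y541S giredestrant and 132660456 in Y541S vehicle. The deposited counts were read with SciPy 1.17.1 and Scanpy 1.11.5 in Python 3.11.15, and the rule was applied to each barcode. Scrublet doublet scores were computed but no cell was removed, since the automatic threshold called 0.528%, 0.0282%, 2.84% and 3.19% of kept cells.

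Cells are not replicates. Counts were summed per library and state, and the 8 sums were tested with edgeR 4.0.16 (R 4.3.3, quasi-likelihood test, TMM, filterByExpr, library as block, Benjamini-Hochberg adjustment over all genes tested). Both states of a library come from the same suspension, which is the pairing, and their deviations from the state means correlated at 0.42 to 0.71. On simulated counts the procedure recovered 75.3% of 97 2-fold and 98.9% of 94 4-fold changes, with 6 false calls among 13606 genes. The simulation had a fixed dispersion and the same change in every library. It had far fewer changed genes than the real data called, so it does not measure false calls among these. Between libraries, CPM of the sums were compared as ratios, with no test, since each group is 1 library; where nothing says how many animals a library pools, differences between libraries may be technical. Intervals cover counting error only.

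The rule for the cells, the 21 gene lists (400 genes, 399 in the files) and the genes named were chosen with earlier results of these data known. Besides list members, the text names the 12 genes furthest up and the 12 furthest down that passed with the same sign in all 4 libraries and averaged 20 CPM or more in the higher state, and in each library comparison the 6 furthest each way with 50 or more UMIs. Any other gene named was chosen after its values were seen. Gene models named Gm or Rik and mitochondrial genes were left out of the naming. Alternatives were DESeq2 1.42.0, other scalings, no filter, no block, leaving out each library, thinning to 3000 UMIs, leaving out the highest doublet scores, 2 or 4 rule genes, a 10% mitochondrial limit, and 50 UMIs in the library comparisons.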

Additional observations from a re-analysis of the deposited data

Results flagged for a closer look

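In cycling secretory cells 11 named genes or list members went opposite ways between giredestrant and vehicle in the 2 genotypes, with both 95% counting intervals wholly past 2-fold and a UMI in each library. Csn2 and Krt6a, with no UMI in WT giredestrant, were likewise lower in WT and higher in Y541S. Other genes went opposite ways with an interval that reached inside 2-fold. Krt5, Wnt4, Cd74, Hey1 and Rbp7 were among them, and these are examples and not a full list. In WT vehicle all 21 Krt6a UMIs lay in 1 of the 109 cycling cells, and 3 cells held 46 of the 47 Csn2 UMIs. The difference between the genotypes was not tested, because each value compares 1 library with 1 library.

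Krt14 and Trp63 of the basal list, and Chst11, Cxcl14, Kcnq5 and Krt16, were lower in WT giredestrant than in WT vehicle and higher in Y541S giredestrant than in Y541S vehicle. Not all basal markers did this, since Oxtr and Nrg1 were at least 2-fold lower in Y541S giredestrant. The relative log2 ratio was -5.20 in WT and 1.76 in Y541S for Chst11, -4.78 and 2.54 for Cxcl14, -4.84 and 2.78 for Kcnq5, -2.92 and 1.33 for Krt14, -4.14 and 2.24 for Krt16, and -5.12 and 2.36 for Trp63. The WT values rest on few cells, since 3 of the 109 cycling cells of WT vehicle held 76.3% of the Krt16 UMIs and 77.4% to 100% of those of the others. Some Y541S values rest on few cells too. In Y541S giredestrant 3 of the 205 cycling cells held 72.5% of the Chst11 UMIs, 68.9% of Cxcl14 and 57.1% of Krt16. For Kcnq5, Krt14 and Trp63 this was 31.6% to 36.4%.

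Of the milk genes, 3 had the same pattern, with -3.41 in WT and 4.89 in Y541S for Csn1s1, -3.72 and 1.61 for Lalba, and -4.52 and 2.31 for Olah, a thioesterase of milk fatty acid synthesis. Lalba had 19 UMIs in 2 of the 109 cycling cells of WT vehicle and 2 UMIs in WT giredestrant. In Y541S giredestrant 3 cells held 74.5% of its UMIs. In WT vehicle 26 cells held Csn1s1, and 3 of them 48.1% of its UMIs. In non-cycling WT cells Csn1s1 was at least 2-fold lower in giredestrant and Lalba at least 2-fold higher. Pdk4, a kinase that restrains pyruvate dehydrogenase, stood at -1.41 in WT and 2.97 in Y541S. Cst3 went the other way, at 1.87 in WT and -2.80 in Y541S.

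Cells outside the secretory class that met the secretory threshold together with that of another lineage, and held 3 or more of the cycling genes, numbered 52 of 165 such cells in WT giredestrant, 16 of 83 in WT vehicle, 21 of 167 in Y541S giredestrant and 63 of 237 in Y541S vehicle. They enter no comparison, and whether they are doublets was not tested.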

How the results depend on the processing

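Between cycling and non-cycling cells no gene called under an alternative had the opposite sign of its main call. Beside the 4769 calls reported (2462 higher, 2307 lower), 1065 genes passed without the library block (no pairing of the states; 829 and 236), 3155 in DESeq2 (1641 and 1514), 3149 of them among the 4769, and 2218 in cells thinned to 3000 UMIs (1198 and 1020), 2073 of them among the 4769, where 9805 genes could be tested and Oasl2 (0.11) and Tjp1 (0.030) changed sign. Leaving out each library gave 3282 to 4728 calls, 1785 to 2416 higher and 1497 to 2312 lower, the lowest without Y541S vehicle. Of the named genes that passed, 120 lost their call without the block, 25 in DESeq2, and 8 to 26 without a library. After thinning 48 lost it with the sign kept, besides the 2 that changed sign and did not pass either. With 2 or more rule genes the cycling share was 22.3%, 20.5%, 22.8% and 30.6% in WT giredestrant, WT vehicle, Y541S giredestrant and Y541S vehicle; with 4 or more it was 11.7%, 13.3%, 12.6% and 20.3%; with the whole rule reapplied to thinned cells it was 7.77%, 9.98%, 11.4% and 13.5%. At 50 or more UMIs, 172 genes were higher and 196 lower in giredestrant than vehicle in WT, 468 and 475 in Y541S, 130 and 166 in Y541S than WT under vehicle, and 483 and 472 under giredestrant. After thinning these were 159 and 196, 394 and 494, 378 and 294, and 496 and 372, in the same order. Both alternatives hold fewer genes, 9166, 10517, 10404 and 9354 at 50 or more UMIs and 3368, 6798, 6161 and 4709 after thinning. With 1 library per group, no alternative can separate a treatment or genotype from the library.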

Other observations

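Ptn and Rbp7, which were lower in Y541S giredestrant, were also higher in cycling than in non-cycling cells, and they are not genes of the division machinery; this was seen after their values were known. Ptn stood at 160.0, 311, 16.4 and 208 CPM in the cycling cells of WT giredestrant, WT vehicle, Y541S giredestrant and Y541S vehicle, against 37.4, 78.1, 6.39 and 57.9 CPM in non-cycling cells (edgeR's quasi-likelihood test, log2 fold change 1.88 ± 0.091 (SE), adjusted p = 9.91e-10). Rbp7 stood at 116, 48.7, 4.79 and 85.4 CPM in cycling cells, against 4.70, 13.4, 0.887 and 9.76 CPM in non-cycling cells (log2 fold change 3.09 ± 0.28 (SE), adjusted p = 1.22e-06). Each was higher in the cycling cells of all 4 libraries, and the libraries overlapped because both genes were low in Y541S giredestrant.

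Slc28a3 differed between the states in WT giredestrant, with 731 CPM in cycling and 397 CPM in non-cycling cells, and less in the other libraries, where it stood at 200.6, 316 and 285 CPM in cycling cells of WT vehicle, Y541S giredestrant and Y541S vehicle and at 178, 369 and 287 CPM in non-cycling cells.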
